A study of Mus musculus with 2 samples.

Results

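The genes of fatty acid oxidation and acyl-CoA handling were examined in mouse primary aortic vascular smooth muscle cells (VSMCs) that received an adenovirus for Klf5 (Ad-Klf5) or for GFP (Ad-Ctl). A row of the deposited table belonged to the set when its gene name began with Acad, Hadh, Ech, Eci, Acsl, Acss, Acsf, Acot, Acaa, Acox or Decr, or was Cpt1a, Cpt1c, Cpt2, Etfa, Etfb, Etfdh or Crat. The rule uses names only, and it took 48 of the 11264 genes. RNA sequencing gave FPKM, fragment counts scaled by transcript length and library size, for 1 named library per condition. Both groups are primary VSMCs of the mouse aorta cultured, per the labels, in IMDM, whereas the methods of the study give low-glucose DMEM. The Ad-Klf5 cells carry the strain label C57BL/7 and the Ad-Ctl cells the label C57BL/6, so a difference of strain and one of virus cannot be told apart. The treatment text of the labels names a different cell line and a lentivirus with a hairpin, and the groups were taken from the sample titles. With 1 library per condition no difference has a replicate check, no test was run, and the values below compare these 2 libraries.

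Fatty acids are oxidised after they have been joined to coenzyme A by acyl-CoA synthetases and carried across the mitochondrial membranes as carnitine esters. Inside, a repeated spiral of dehydrogenation, hydration, a further dehydrogenation and thiolysis shortens the chain and releases acetyl-CoA, while electrons leave through the electron transfer flavoprotein and NADH. Peroxisomes run a related pathway for very long and branched chains, and thioesterases split acyl-CoA back to free fatty acid. Arterial smooth muscle is known for a high rate of aerobic glycolysis and also burns fatty acids.

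Klf5 itself was at 2.62 FPKM in Ad-Klf5 and 1.76 FPKM in Ad-Ctl, a log2 ratio of 0.39. This difference is smaller than either fold bound used below, and Klf5 was at a low level in both libraries. The values therefore do not show a clear overexpression of Klf5, and its extent in these cells was not tested. Throughout, the log2 ratio is log2(FPKM + 1) in Ad-Klf5 minus log2(FPKM + 1) in Ad-Ctl, which understates the difference of genes at low levels. A gene counts as measured at a mean of at least 1 FPKM over the libraries, which 10158 genes and 46 of the 48 set genes reached. The FPKM values of the whole table summed to 300045 in Ad-Klf5 and 278962 in Ad-Ctl. Because the values are FPKM and not read counts, their depth is unknown. Of 9 smooth muscle markers 6 had a row and 5 were measured, of which 3 were below 0 and 2 above. Acta2, the smooth muscle actin, was at 201 FPKM in Ad-Klf5 and 229 FPKM in Ad-Ctl. Tagln, an actin-binding protein of smooth muscle, was at 14.4 FPKM in Ad-Klf5 and 10.3 FPKM in Ad-Ctl. Cnn1 had a row but was under the minimum, at 0.860 FPKM in Ad-Klf5 and 0.782 FPKM in Ad-Ctl. Myh11, Myocd and Synpo2, defining genes of contractile smooth muscle, had no row, so their levels are not known here. In bulk RNA a smaller share of a cell type and less RNA per cell cannot be told apart.

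The 46 measured genes lay mostly on the low side in Ad-Klf5, by small amounts. A ratio below 0 was found for 34 of them (73.9%) and for 52.1% of all measured genes (5291 of 10158), and the other 12 set genes were above 0. The median log2 ratio was -0.13 for the set, with quartiles of -0.28 and 0.01, and -0.02 for all measured genes, with quartiles of -0.25 and 0.21. None of the 46 was at least 2-fold apart, against 1.65% of all measured genes (99 higher and 69 lower). At 1.5-fold, 3 of 46 (6.52%) were lower in Ad-Klf5, beside a background of 5.49%, and 0 were higher, beside 4.44%. A share of 6.52% lies near that background. The set summed to 1117 FPKM in Ad-Klf5 and 1202 FPKM in Ad-Ctl, a change of -7.01%, while the sum over all measured genes was 7.59% higher in Ad-Klf5. As a share of the whole table the 48 genes took 0.373% in Ad-Klf5 and 0.432% in Ad-Ctl. The plot of cumulative shares shows the set shifted to the left of all genes between its quartiles and ending inside their range.

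**Figure D1:**
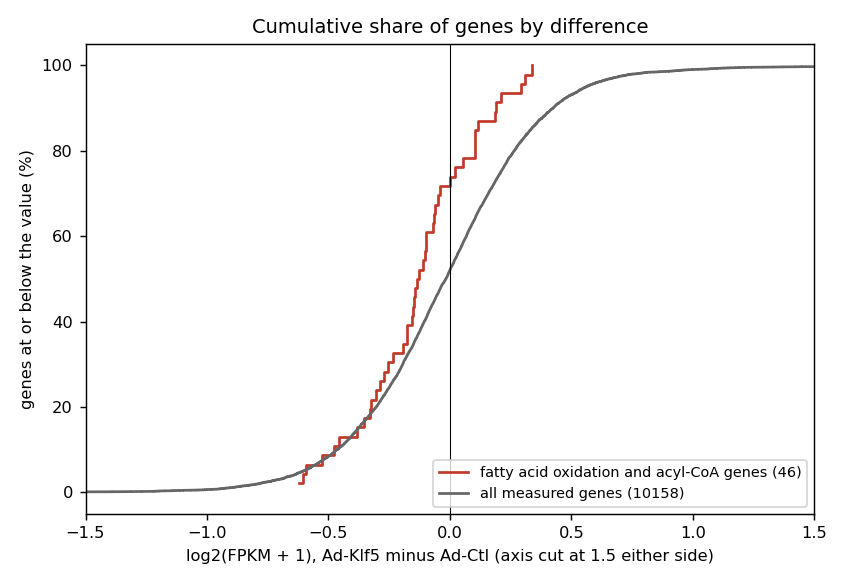
The horizontal axis gives the log2 ratio between the libraries (Ad-Klf5 minus Ad-Ctl) and the vertical axis the percent of genes at or below it, for the 46 measured set genes and for all 10158 measured genes. At 0 the set stood at 73.9% and all genes at 52.1%, and the set ran between -0.62 and 0.34.

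The genes lay on 16 chromosomes and their levels were spread widely. Within Ad-Klf5 the highest genes were Etfb at 110.9 FPKM, Acot7 at 94.8 FPKM and Eci1 at 89.5 FPKM, and within Ad-Ctl they were Eci1 at 96.0 FPKM, Etfb at 90.4 FPKM and Acot7 at 83.0 FPKM. The same 3 genes led both libraries in a different order. The median measured set gene was at 13.7 FPKM in Ad-Klf5 and at 13.7 FPKM in Ad-Ctl, above the median over all measured genes of 8.59 FPKM in Ad-Klf5 and 8.90 FPKM in Ad-Ctl. The lowest genes were Acot1, a cytosolic thioesterase, at 0.356 FPKM in Ad-Klf5 and 1.21 FPKM in Ad-Ctl, and Acad11, a dehydrogenase of hydroxylated fatty acids, at 0.864 FPKM in Ad-Klf5 and 1.02 FPKM in Ad-Ctl. Both stayed under the mean of 1 FPKM and are counted in no share of measured genes. By level, a ratio below 0 was found for 11 of 14 measured genes with a mean under 5 FPKM, beside 56.4% of all measured genes at that level, and for 14 of 17 above 20 FPKM, beside 42.4%. Between 5 and 20 FPKM it was found for 9 of 15, near the 55.3% of all genes there.

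**Figure D2:**
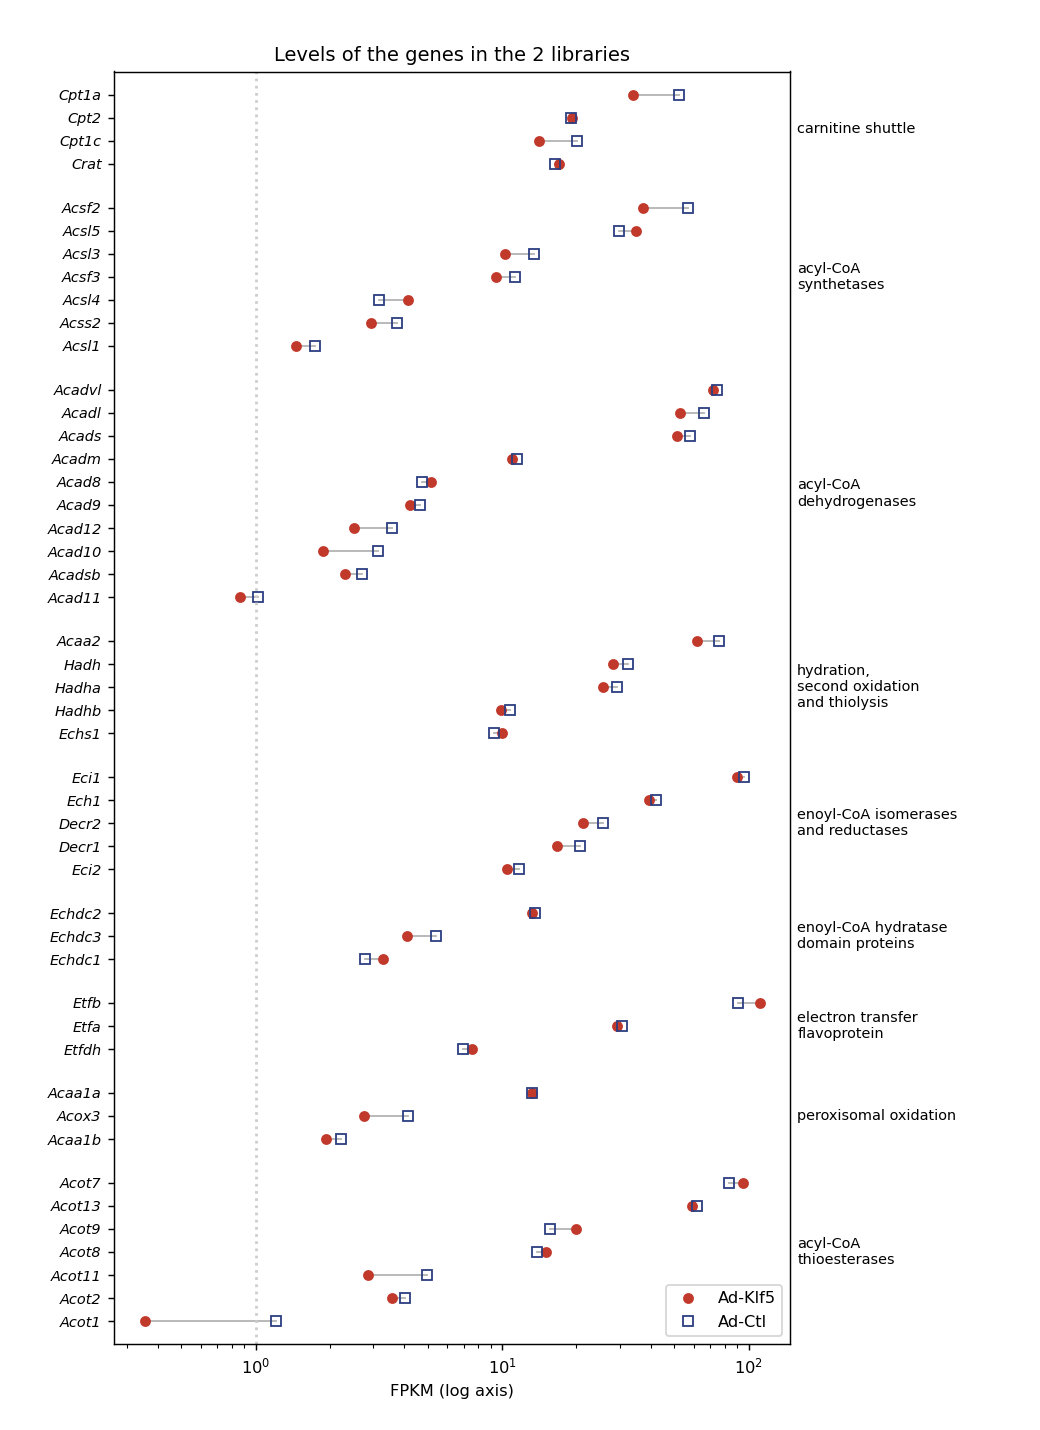
FPKM on a log axis of 47 of the 48 genes, grouped by role, with a filled circle for the Ad-Klf5 library and an open square for the Ad-Ctl library. Cpt1a (34.1 FPKM in Ad-Klf5, 52.4 FPKM in Ad-Ctl) and Acsf2 (37.4 FPKM in Ad-Klf5, 56.9 FPKM in Ad-Ctl) show wide gaps among the well-expressed genes, and the dotted line marks 1 FPKM.

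The 3 genes past 1.5-fold sit at different steps. Cpt1a (ENSMUSG00000024900.4, chr19:3323301-3385732), the liver form of carnitine palmitoyltransferase and the controlled entry of long chains into mitochondria, was at 34.1 FPKM in Ad-Klf5 and 52.4 FPKM in Ad-Ctl, a log2 ratio of -0.61. Acsf2 (ENSMUSG00000076435.3, chr11:94557102-94601871), a mitochondrial synthetase that activates medium-chain fatty acids, was at 37.4 FPKM in Ad-Klf5 and 56.9 FPKM in Ad-Ctl, a log2 ratio of -0.59. Acot11 (ENSMUSG00000034853.16, chr4:106744555-106804998), a thioesterase of long-chain acyl-CoA known from brown fat, was at 2.86 FPKM in Ad-Klf5 and 4.94 FPKM in Ad-Ctl, a log2 ratio of -0.62. All 3 lie just past the bound, and Acad10 at -0.53 was the next gene inside it. With a pseudocount of 5 in place of 1, 0 genes of the set were 1.5-fold lower, and after the trend with exon length (given after the gene lists) was subtracted 1 was. At the other end Acot9 (ENSMUSG00000025287.15, chrX:155262443-155297654), a mitochondrial thioesterase, had the highest ratio of the set with 19.9 FPKM in Ad-Klf5 and 15.6 FPKM in Ad-Ctl, a log2 ratio of 0.34. Of the transcript sequence of Acsf2, 33.3% of the runs of 50 bases also occur in the annotated gene Gm5540, and of Acot9 15.2% occur in Acot10, so reads of these genes may have been split or shared.

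The stretches upstream of these 4 genes are shown because they mark both ends of the set. Each line holds the 250 bases before a RefSeq start, 5′ to 3′ on the strand of the gene, from the GRCm38.p6 annotation, and capitals mark matches on either strand to the GC box CCCCGCCC, the CACCC box CCACCC or the receptor motif AGGTCA. Both C-rich motifs are of the kind bound by Krüppel-like factors, and AGGTCA is the unit recognised by nuclear receptors such as the PPARs. The coordinates are chr19:3323051-3323300 on the plus strand for Cpt1a, chr11:94601787-94602036 on the minus strand for Acsf2, chr4:106805008-106805257 on the minus strand for Acot11 and chrX:155262193-155262442 on the plus strand for Acot9. The RefSeq start of Acsf2 lies 85 bases inside the gene span given above, so part of its line lies within that span. That of Acot11 lies 9 bases outside its span.
Cpt1a: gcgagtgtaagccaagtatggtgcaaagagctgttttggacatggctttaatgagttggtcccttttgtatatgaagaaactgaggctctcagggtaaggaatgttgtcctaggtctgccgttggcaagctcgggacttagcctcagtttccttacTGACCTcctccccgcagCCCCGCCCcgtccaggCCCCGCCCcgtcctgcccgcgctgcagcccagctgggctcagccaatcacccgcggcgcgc
Acsf2: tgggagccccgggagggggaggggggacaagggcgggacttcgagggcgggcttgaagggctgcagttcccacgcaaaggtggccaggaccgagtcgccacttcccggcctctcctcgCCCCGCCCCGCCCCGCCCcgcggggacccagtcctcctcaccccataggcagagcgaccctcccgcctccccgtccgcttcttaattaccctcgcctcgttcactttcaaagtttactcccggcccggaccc
Acot11: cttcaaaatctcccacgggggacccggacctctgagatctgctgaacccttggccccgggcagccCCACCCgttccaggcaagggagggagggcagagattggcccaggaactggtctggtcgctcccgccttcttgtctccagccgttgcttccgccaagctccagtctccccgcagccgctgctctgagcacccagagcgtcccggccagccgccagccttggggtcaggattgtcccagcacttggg
Acot9: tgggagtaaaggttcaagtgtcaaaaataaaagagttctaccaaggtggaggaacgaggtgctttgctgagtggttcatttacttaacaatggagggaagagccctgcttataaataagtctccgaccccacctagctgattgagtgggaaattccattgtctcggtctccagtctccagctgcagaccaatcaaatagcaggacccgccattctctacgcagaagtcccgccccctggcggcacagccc
Cpt1a held 2 separate GC boxes and 1 AGGTCA motif, here on the other strand. Acsf2 held 3 GC boxes that overlap each other in 1 unbroken run, so they are not separate sites. Acot11 held 1 CACCC box, while Acot9 held none of these letters in this window. The low and high genes are not set apart by this, since the 300-base promoter entry of Acot9, which runs past the start, holds a GC box, and so does a further promoter entry of Acot11.

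Over the whole set, 42 of the 48 genes matched the RefSeq promoter table, in which each entry runs 250 bases before to past the start for 300 bases in all. The GC box was found for 23 of the 42 genes (54.8%), beside 39.4% of the 7972 measured genes with an entry and 17.6% of all 32851 promoters. The CACCC box was found for 19 genes (45.2%), beside 40.9% of measured genes and 31.5% of all promoters. The receptor motif AGGTCA was found for 6 genes (14.3%), beside 14.4% of measured genes and 16.3% of all promoters. Neither the ERR site TCAAGGTCA, which contains the receptor motif, nor that motif repeated with 1 base between was found in any of the 42, and among measured genes these stood at 0.314% and 0.0251%. A match is a description of the letters and not a bound site. A gene was counted when any of its promoter entries matched, whereas the share of all promoters counts single entries. Shares of genes and shares of promoters are therefore unlike measures, and only set genes and measured genes compare directly. Other reasons for the differences were not tested.

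The 4 genes of the carnitine shuttle were split. Cpt1a and Cpt1c were on the low side, Cpt2 and Crat were level. Cpt1c, the neuronal form held in the endoplasmic reticulum, was at 14.2 FPKM in Ad-Klf5 and 20.1 FPKM in Ad-Ctl, a log2 ratio of -0.48. Cpt2, the inner-membrane enzyme that returns the chain to coenzyme A, was at 19.3 FPKM in Ad-Klf5 and 19.0 FPKM in Ad-Ctl. Crat, which acts on acetyl groups, was at 17.0 FPKM in Ad-Klf5 and 16.4 FPKM in Ad-Ctl. The level of Cpt1a over that of Cpt2 was 1.77 in Ad-Klf5 and 2.76 in Ad-Ctl. The 4 genes together summed to 84.6 FPKM in Ad-Klf5 and 107.8 FPKM in Ad-Ctl, a change of -21.6%, and most of that difference was Cpt1a.

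The acyl-CoA synthetases had a median log2 ratio of -0.24, with 5 of 7 below 0. Counts below 0 in this and the later classes stand beside 52.1% of all measured genes. Beside Acsf2, the gene with the highest mean in this class, Acsl3, a synthetase of lipid droplets and the endoplasmic reticulum, was at 10.3 FPKM in Ad-Klf5 and 13.4 FPKM in Ad-Ctl (log2 ratio -0.35). Acsl4, which prefers arachidonate, went the other way at 4.16 FPKM in Ad-Klf5 and 3.16 FPKM in Ad-Ctl (0.31). Acsl5, a synthetase of mitochondria and the endoplasmic reticulum, was at 34.8 FPKM in Ad-Klf5 and 29.9 FPKM in Ad-Ctl (0.21). The remaining members of this class lay on the low side by smaller amounts. Acss2, which makes acetyl-CoA in the cytosol and nucleus, had a log2 ratio of -0.27, Acsf3, the mitochondrial malonyl-CoA synthetase, -0.24, and Acsl1, the main form of fat and heart, -0.15 at only 1.46 FPKM in Ad-Klf5 and 1.74 FPKM in Ad-Ctl.

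The acyl-CoA dehydrogenases take the first electrons of each turn, and 8 of the 9 measured were below 0, with a median log2 ratio of -0.16. Acadvl, for very long chains, was the highest of them and nearly level, at 72.0 FPKM in Ad-Klf5 and 74.5 FPKM in Ad-Ctl (log2 ratio -0.05). Acadl, for long chains, was at 52.5 FPKM in Ad-Klf5 and 66.0 FPKM in Ad-Ctl (-0.33). Acads, for short chains, was at 51.1 FPKM in Ad-Klf5 and 57.9 FPKM in Ad-Ctl (-0.18). Acadm, for medium chains, had a ratio of -0.07 and Acadsb, for short branched chains, -0.16. The less studied Acad10 and Acad12, neighbours 2.087 kb apart on chromosome 5, had ratios of -0.53 and -0.38, and Acad10 was at 1.88 FPKM in Ad-Klf5 and 3.15 FPKM in Ad-Ctl. Acad10 shares 16.8% of its runs of 50 bases with Acad12, so their values may not be separate. Acad9, which also helps assemble respiratory complex I, had a ratio of -0.10, and Acad8, for isobutyryl-CoA, was the single dehydrogenase above 0, at 0.10.

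The later steps of the mitochondrial spiral were also on the low side, with 4 of 5 below 0 and a median of -0.18. Acaa2, the thiolase that releases acetyl-CoA, was at 61.7 FPKM in Ad-Klf5 and 75.5 FPKM in Ad-Ctl (log2 ratio -0.29). Hadh, the short-chain hydroxyacyl dehydrogenase, was at 28.2 FPKM in Ad-Klf5 and 32.4 FPKM in Ad-Ctl (-0.19). Hadha and Hadhb encode the subunits of the trifunctional protein and are transcribed away from each other from starts 85 bases apart on chromosome 5. Hadha was at 25.7 FPKM in Ad-Klf5 and 29.2 FPKM in Ad-Ctl (-0.18), and Hadhb at 9.88 FPKM in Ad-Klf5 and 10.7 FPKM in Ad-Ctl (-0.11). The level of Hadha over that of Hadhb was 2.60 in Ad-Klf5 and 2.72 in Ad-Ctl, so the pair kept nearly the same proportion in these values. Of the runs of 50 bases in Hadhb, 18.1% also occur in the annotated gene Gm13910, so reads of Hadhb may have been split or shared. Echs1, the short-chain hydratase, was the exception at 10.004 FPKM in Ad-Klf5 and 9.25 FPKM in Ad-Ctl (0.10). The 9 core genes of the spiral, Acadvl, Acadl, Acadm, Acads, Echs1, Hadh, Hadha, Hadhb and Acaa2, summed to 322 FPKM in Ad-Klf5 and 367 FPKM in Ad-Ctl, a change of -12.2%, with 8 of 9 below 0.

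The enzymes that reshape unsaturated chains during their oxidation were below 0 in 5 of 5 cases, with a median log2 ratio of -0.15. Eci1, a mitochondrial enoyl-CoA isomerase, was the highest at 89.5 FPKM in Ad-Klf5 and 96.0 FPKM in Ad-Ctl (-0.10). Decr1, the mitochondrial dienoyl-CoA reductase, was at 16.6 FPKM in Ad-Klf5 and 20.8 FPKM in Ad-Ctl (-0.31), and Decr2, its peroxisomal relative, at 21.3 FPKM in Ad-Klf5 and 25.6 FPKM in Ad-Ctl (-0.26). Eci2, another isomerase, had a ratio of -0.15 and Ech1, a dienoyl-CoA isomerase, -0.10. The 3 proteins with an enoyl-CoA hydratase domain varied: Echdc1, which removes ethylmalonyl-CoA, was at 0.19, Echdc2 at -0.04 and Echdc3 at -0.33.

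The electron transfer flavoprotein genes were split, with 1 of 3 below 0 and a median of 0.10. Etfb, the beta subunit, was at 110.9 FPKM in Ad-Klf5 and 90.4 FPKM in Ad-Ctl, a log2 ratio of 0.29. Etfa, the alpha subunit of the same dimer, was at 29.4 FPKM in Ad-Klf5 and 30.7 FPKM in Ad-Ctl (-0.06). Etfdh, which hands the electrons to ubiquinone, was at 7.55 FPKM in Ad-Klf5 and 6.96 FPKM in Ad-Ctl (0.10). The level of Etfb over that of Etfa was 3.77 in Ad-Klf5 and 2.94 in Ad-Ctl. Of the runs of 50 bases in Etfb, 43.8% also belong to Gm45233, an annotated gene on the same strand that overlaps it and had its own values of 0.472 FPKM in Ad-Klf5 and 1.21 FPKM in Ad-Ctl. How the authors divided those reads is not given in the sources used here. The median of the class was 0.02 without Etfb and 0.01 with both libraries scaled to the same sum, and Etfb itself stood at 0.07 after the trend with exon length was subtracted.

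The peroxisomal genes were below 0 in 4 of 4 cases, with a median of -0.13. Acox3, which handles branched chains, was at 2.74 FPKM in Ad-Klf5 and 4.13 FPKM in Ad-Ctl (log2 ratio -0.46). The thiolase Acaa1a was level at 13.2 FPKM in Ad-Klf5 and 13.3 FPKM in Ad-Ctl. Its copy Acaa1b shares 30.5% of its runs of 50 bases with it and was at 1.94 FPKM in Ad-Klf5 and 2.23 FPKM in Ad-Ctl.

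The thioesterases, which work against activation, were divided, with 3 of 6 below 0 and a median log2 ratio of 0.02 that changed sign with the scaling and the filter. Acot7, an abundant enzyme of long-chain acyl-CoA, was at 94.8 FPKM in Ad-Klf5 and 83.0 FPKM in Ad-Ctl (0.19). Acot9 was at 0.34, and Acot8, the peroxisomal form, at 0.11. Acot13, which lies at mitochondria, was at 58.8 FPKM in Ad-Klf5 and 61.8 FPKM in Ad-Ctl (-0.07). Acot2, the mitochondrial form, was at 3.56 FPKM in Ad-Klf5 and 4.05 FPKM in Ad-Ctl (-0.15) and shares 24.5% of its runs of 50 bases with Acot1, its neighbour 15.616 kb away on chromosome 12. Only Acot11 in this class passed 1.5-fold. The plot of ratios by role shows how the classes differ within the narrow range of the set.

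**Figure D3:**
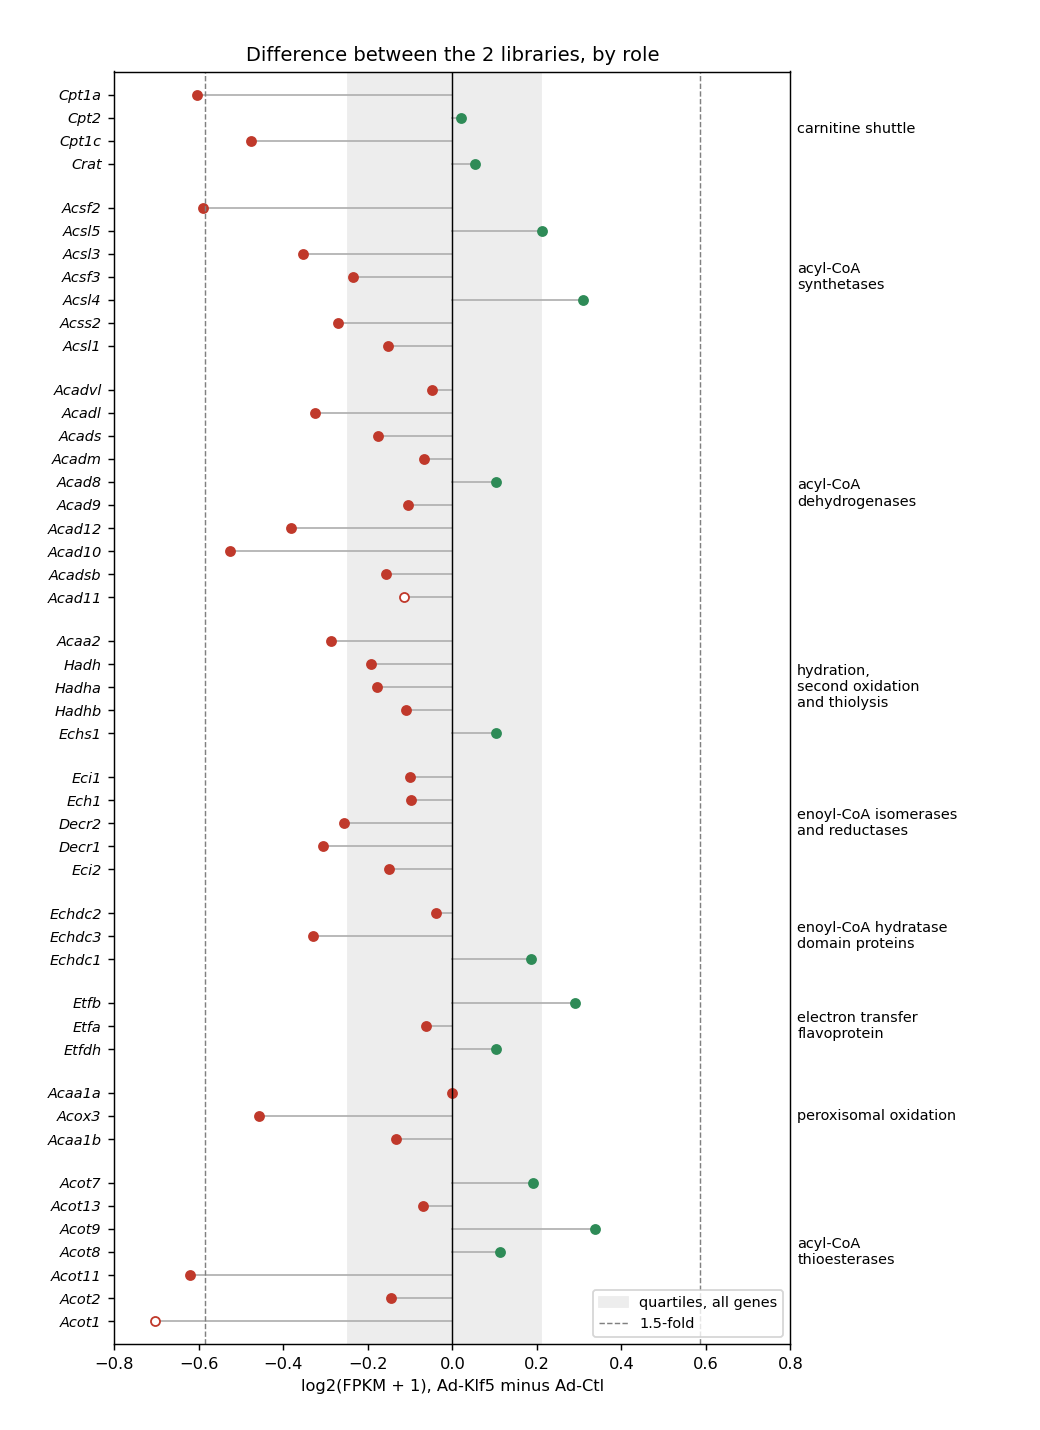
The log2 ratio between the libraries (Ad-Klf5 minus Ad-Ctl) of 47 of the 48 genes by role, with an open symbol for genes under a mean of 1 FPKM, a grey band between the quartiles of all measured genes (-0.25 and 0.21) and dashed lines at 1.5-fold. Acot11, Cpt1a and Acsf2 are past the lower line among measured genes and no gene is past the upper one.

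No gene around the pathway, from lists of known functions, was 2-fold apart at the pseudocount of 1, beside 1.65% of all measured genes. That pseudocount narrows differences at low levels, and without it Slc27a1, Pdk4, Bdh2, Plin4 and Acacb would be over 2-fold apart. At 1.5-fold lower were 2 of 9 uptake and binding, 2 of 5 ketone body and 2 of 7 lipolysis genes. The PPAR list had 1 of 10, fatty acid synthesis 1 of 14 and the others 0, beside 5.49%. None was 1.5-fold higher, beside 4.44%. For the counts below 0 in these lists, the share over all measured genes was 52.1%. Among 9 measured genes of fatty acid uptake and binding 7 were below 0 (median -0.05), led by Slc27a1, a fatty acid transporter, at 3.38 FPKM in Ad-Klf5 and 7.06 FPKM in Ad-Ctl (-0.88) and Fabp3, the heart-type binding protein (-0.70). Crot, the peroxisomal carnitine octanoyltransferase, was at -0.53, in a list of 5 measured carnitine genes of which 4 were below 0 (median -0.20). Peroxisomal genes outside the rule were below 0 in 11 of 13 cases (median -0.14), with Nudt19, a coenzyme A diphosphatase, highest at 0.39. Of 18 genes of branched- and odd-chain breakdown 14 were below 0 (median -0.14), with Hibch, of valine breakdown, lowest at -0.49.

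The regulators and classic targets of the PPAR, PGC-1 and ERR system were below 0 in 8 of 10 measured cases, beside 52.1% of all measured genes. Their median was -0.23. Pdk4, the kinase that turns pyruvate dehydrogenase off when fat is burned, was at 2.82 FPKM in Ad-Klf5 and 5.67 FPKM in Ad-Ctl (log2 ratio -0.81). Angptl4, a secreted inhibitor of lipoprotein lipase, was at -0.51, Rxra, the partner receptor of PPARs, at -0.45, and Pprc1, a PGC-1 relative, at 0.52. Ketone body and acetoacetyl-CoA enzymes had 4 of 5 below 0 (median -0.25). In that list Bdh2 was at 1.23 FPKM in Ad-Klf5 and 3.17 FPKM in Ad-Ctl (-0.90). Lipolysis and lipid droplet genes had 6 of 7 below 0 (median -0.36), with Plin4 at -0.82 and Lipe, the hormone-sensitive lipase, at -0.77. Fatty acid synthesis genes were even, with 7 of 14 below 0 and a median of 0.01, which turned to -0.09 with both libraries scaled to the same sum. Acacb, which makes the malonyl-CoA that holds Cpt1 in check, was the exception at 1.67 FPKM in Ad-Klf5 and 4.31 FPKM in Ad-Ctl (-0.99).

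Genes of ATP synthase, cytochrome oxidase and complexes II and III lay mostly above 0 in these values. Of all measured genes, 4867 of 10158 were above 0. Complex I of the respiratory chain and the genes of mitochondrial DNA were not counted here. TCA cycle genes, which take up the acetyl-CoA, were split. These comparison sets were chosen by gene name after the data had been seen. ATP synthase genes were above 0 in 15 of 15 cases (median log2 ratio 0.29), cytochrome oxidase subunits in 10 of 12 (0.38), genes of complexes II and III in 10 of 12 (0.26) and TCA cycle genes in 7 of 13 (0.08). The median of the fatty acid oxidation set was -0.13. Median exon length was 2039 bases for ATP synthase genes, 1173 bases for cytochrome oxidase subunits and 1597 bases for complexes II and III, against 4134 bases in the set. After subtraction of the running median of all genes over exon length, the medians were 0.27 for ATP synthase, 0.10 for cytochrome oxidase, 0.07 for complexes II and III and 0.09 for the TCA cycle, and -0.10 for the set. With both libraries scaled to the same sum the TCA cycle median turned to -0.03, while the set stood at -0.21 and ATP synthase at 0.18. No test of these differences was made.

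**Figure D4:**
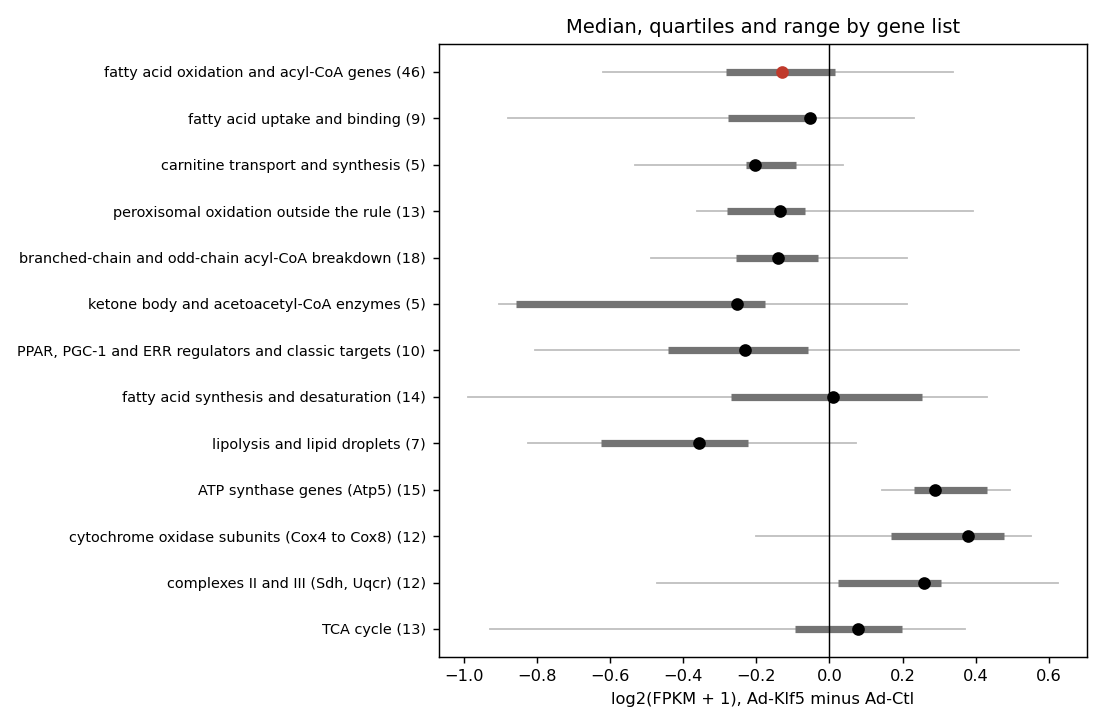
Median (point), quartiles (thick line) and range (thin line) of the log2 ratio between the libraries (Ad-Klf5 minus Ad-Ctl) in each gene list, with the number of measured genes in parentheses. The fatty acid oxidation and acyl-CoA genes lie at -0.13, lipolysis and lipid droplets at -0.36 and cytochrome oxidase subunits at 0.38, a value that was 0.10 after subtraction of the trend with exon length.

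Exon length moved with the ratio over all genes. It counts the merged exons of all annotated transcripts of a gene, so it can exceed the length of any 1 transcript. Genes with less exon sequence had higher ratios in Ad-Klf5. Spearman's rho between ratio and exon length was -0.26 across 10143 measured genes and -0.28 across the 46 set genes. These points are genes of the same 2 libraries and no p is given. Exon length had a median of 4134 bases in the set and 4334 bases over all measured genes. After subtraction of a running median over length, a step chosen after the data had been seen, 33 of 46 set genes were below 0, Cpt1a stood at -0.52, Acot11 at -0.53 and Acsf2 at -0.62, and Etfb at 0.07. Whether length, RNA quality or another feature of the libraries made this trend was not tested.

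**Figure D5:**
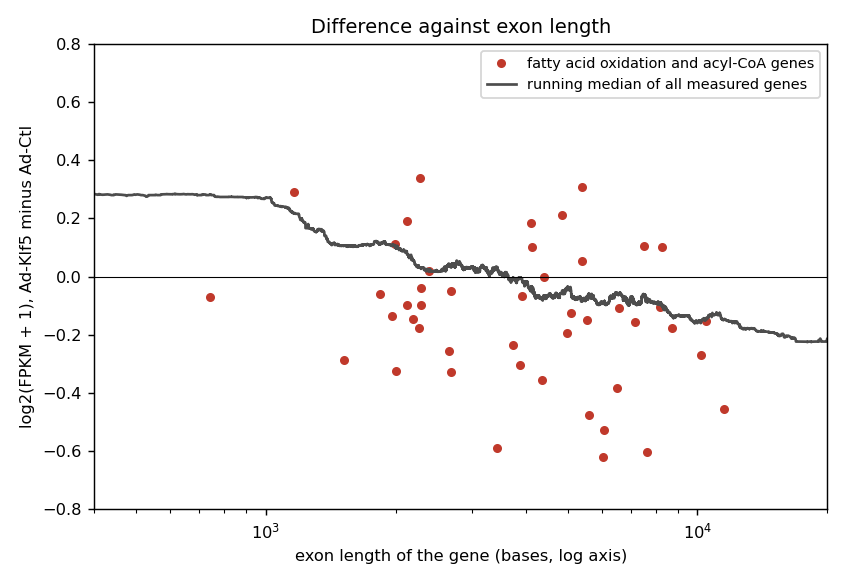
Log2 ratio between the libraries (Ad-Klf5 minus Ad-Ctl) against exon length in bases on a log axis, with points for the 46 measured set genes and a line for the running median of all measured genes. The line declines with length, and 33 of the 46 points lie below it.

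Markers of other cell types were read beside these values. Mesothelial markers, of which 8 of 14 had a measured row, summed to 185 FPKM in Ad-Klf5 and 53.2 FPKM in Ad-Ctl. At least 2-fold higher were 5 of the 8, beside 99 of all 10158 measured genes. Among the 5, Msln was at 55.9 FPKM in Ad-Klf5 and 4.66 FPKM in Ad-Ctl. Upk3b was at 24.5 FPKM in Ad-Klf5 and 4.30 FPKM in Ad-Ctl. Upk1b, Krt19 and Slpi had log2 ratios of 1.80, 1.62 and 1.12. The markers inside 2-fold were Nkain4 at 0.58, Krt18 at 0.16 and Pkhd1l1 at -0.07. Fibroblast markers, 4 of 8 measured, summed to 532 FPKM in Ad-Klf5 and 642 FPKM in Ad-Ctl, most of it Col1a1. Pdgfra was at 4.62 FPKM in Ad-Klf5 and 13.7 FPKM in Ad-Ctl, a log2 ratio of -1.39. The ratios of the others were smaller, at -0.48 for Fbln1, -0.27 for Col1a1 and -0.07 for Dcn. The 5 measured smooth muscle markers summed to 239 FPKM in Ad-Klf5 and 269 FPKM in Ad-Ctl, most of it Acta2, and were split, with log2 ratios of -0.58 for Lmod1, -0.28 for Smtn, -0.19 for Acta2, 0.00480 for Des and 0.44 for Tagln. Adipocyte markers bear on fat-burning genes because perivascular fat surrounds the aorta. Of 12 such markers 3 had a row, and the other 9 had none, so their levels are not known here. Cebpa was at 4.28 FPKM in Ad-Klf5 and 5.96 FPKM in Ad-Ctl. Lpl was at 1.18 FPKM in Ad-Klf5 and 0.729 FPKM in Ad-Ctl, and Pparg at 0.460 FPKM in Ad-Klf5 and 0.434 FPKM in Ad-Ctl. Endothelial (Eng), leukocyte (Cd14) and cardiomyocyte (Tnnt2) lists had 1 measured gene each. The part of any of these cells in the differences above was not tested.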

How the data were processed

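RNA of mouse aortic VSMCs was sequenced, with 1 Ad-Klf5 and 1 Ad-Ctl library named in the labels, and the authors deposited FPKM for each named library. StringTie, STAR 2.5.2b, cutadapt and HISAT2 2.0.5 are listed, with no roles, in the processing notes of the submitters, and so is a build, mm8, that the coordinates, which are those of GRCm38, do not follow. The methods of the study name HTSeq and a human genome instead. The labels describe a dUTP library, whereas strand use in counting is not given in the sources used here, and 16 of the 48 genes overlap a protein-coding gene on the other strand. The authors also deposited group means as log2 values, whose headings name no condition and which may hold libraries the labels do not name, and columns of their own comparison (log2 fold change, fold change as a ratio, p-values and q-values), and none of these was used.

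Rows sharing a symbol were summed. Log2 ratios used a pseudocount of 1, and measured genes (mean FPKM of 1 or more) were counted at 1.5-fold and 2-fold. Every set gene is in the counts, and 2 genes that the naming rule takes are not reported here. Full values were given to genes at least 1.5-fold apart, to the highest gene of each role and to genes under 1 FPKM. Each other pathway list names up to 4 genes by size of the ratio, and some marker lists name more. No p-value was computed. The set and the lists were chosen with earlier results of these data known. Promoters came from RefSeq. Shared sequence was counted as runs of 50 bases of annotated exons found in another gene. The 2-fold counts were tested on simulated data with planted changes larger than any in the set, which does not test small differences. Alternatives were other pseudocounts, filters and scalings, and the highest row per symbol. Calculations ran in Python 3.11.15 (pandas 2.3.3, scipy 1.17.1, numpy 2.4.6), and plots in matplotlib 3.10.9.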

Additional observations from a re-analysis of the deposited data

How the results depend on the processing

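The count of genes in the set with a ratio below 0 was 34 of 46, and it was 36 of 48 with no filter, 23 of 32 among genes averaging 5 FPKM or more, 36 of 46 with both libraries scaled to the same sum and 33 of 46 after centring on the median or trimmed mean of all genes. No measured set gene was 2-fold apart in any of these settings. A pseudocount, a filter, the choice of row and the removal of genes cannot change the sign of a ratio of the set. Only the scaling to the same sum, the centrings and the length step could do so. Of the 46 genes, 43 kept their sign in the settings that held them, 33 below and 10 above 0. The exceptions were Acaa1a on centring and on length, and Cpt2 and Crat on scaling to the same sum, which put the median of all genes at -0.11 and 62.7% of them below 0. With that scaling 77 genes of the whole table were 2-fold higher and 107 lower, against 99 and 69.

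Genes 2-fold higher and lower numbered 159 and 189 under a pseudocount of 0.1, 33 and 19 under one of 5, and 65 and 45 among genes averaging 5 FPKM or more. The set genes at least 1.5-fold lower numbered 0 with a pseudocount of 5. The thioesterase median was -0.0702 with no filter, 0.15 above the higher minimum and -0.0792 with the same sum, where the median of hydration, later oxidation and thiolysis was -0.28. In settings chosen after seeing the data, subtraction of the trend with exon length left 1 set gene 1.5-fold lower, and medians of -0.0941 for thioesterases, -0.0481 for hydration, later oxidation and thiolysis and -0.12 for synthetases. Without the genes that share 10% or more of their runs of 50 bases, 26 of 36 were below 0 and the peroxisomal median was -0.29. The causes were not tested. No paired analysis was possible because each condition has 1 library, and leaving out a replicate was not run for the same reason. The authors' group means were not run as an alternative because their headings name no condition.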
